A study of Mus musculus with 9 samples.

Results

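The insulin-like growth factor (IGF) system was followed through 10 genes, namely the ligands Igf1 and Igf2, the receptors Igf1r and Igf2r, and the binding proteins Igfbp2, Igfbp3, Igfbp4, Igfbp5, Igfbp6 and Igfbp7. They are 10 of 18193 genes with a probe set of their own on the array used, and every probe set annotated with 1 of these symbols and no other was taken, which gave 28 of the 45037 probe sets compared. The cells were MC3T3-E1, an immortal mouse preosteoblast line that grew out of newborn calvaria and is labelled as C57BL/6. Low-intensity pulsed ultrasound (LIPUS) was given once through the bottom of the dish at 30 mW/cm2 and 1.5 MHz for 20 min, and RNA was taken after a further 24 h of culture (LIPUS 24 h) or 6 h of culture (LIPUS 6 h). The control cells were mock-treated, and the culture time behind them is not given in the sources used here. Between LIPUS 24 h and LIPUS 6 h cells, time in culture and time since LIPUS cannot be told apart. The 1 control group cannot match both in culture time. For at least 1 of the comparisons with control, culture time and LIPUS therefore cannot be told apart either. Cells of all 3 groups had been grown for 14 days in medium with 10% serum, 0.3 mM ascorbic acid and 10 mM glycerophosphate, and were then reseeded 24 h before the treatment. Each group has 3 arrays, numbered 1 to 3 in the labels, so the data describe 1 cell line in culture. The number is taken here as that of the experiment, which the labels do not say.

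IGF1 and IGF2 are secreted peptides related to insulin, and bone-forming cells both make and respond to them. Both act through the tyrosine kinase receptor encoded by Igf1r, while the receptor encoded by Igf2r carries IGF2 into the cell for degradation and has no kinase of its own. The binding proteins hold IGFs outside the cell and either restrain or present them, and proteases that cut the binding proteins set them free again.

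All values are log2 signals after robust multi-array averaging (RMA), so a difference of 1 is a doubling, and signals of different probe sets cannot be ranked against each other. Arrays of the same experiment number lay close together. After the group means were taken off, they correlated at 0.70 to 0.93 in 9 of 9 pairs, so LIPUS and control arrays were compared within experiments. The 18 pairs with different numbers gave -0.67 to 0.01. Deviations from a group mean cancel out, so high values in the 9 pairs force low ones in the 18, which are no separate evidence. Many probe sets had exactly the same value on all 3 arrays of an experiment, 0.224% of the 45037 in experiment 1 but 36.3% in experiment 2 and 28.1% in experiment 3. Of the 28 IGF probe sets this held for 0, 5 and 6 in experiments 1, 2 and 3, and none of those was called at 24 h. Some called probe sets did share a value on 2 arrays of an experiment. Igfbp5 1422313_a_at had 7.97 at both 6 h and 24 h in experiment 2. Control and 6 h were equal for Igf1 1419519_at in experiment 2 and Igfbp4 1421991_a_at in experiment 3. The source of the equal values and their part in the calls were not tested. Of 12 osteoblast markers 9 were measured. Col1a1, Col1a2, Sparc and Postn had mean signals of 12.7, 14.2, 13.7 and 13.8, and the probe sets of Ibsp and Alpl gave 3.42 and 5.07. These signals do not rank the genes by expression. For alkaline phosphatase, the product of Alpl, the study measured activity in control cells that rose with time in culture. The mean signal of these 9 markers ranged from 9.33 to 9.59 in LIPUS 24 h cells and from 9.03 to 9.37 in control cells, and only Dmp1 was called (higher by 1.43). Markers of other cell types moved too at 24 h. In the epithelial list of 5 genes Krt14 (lower by 0.98) and Cdh1 (lower by 0.75) were called, with list means of 6.11 to 6.57 in LIPUS 24 h cells and 6.56 to 6.91 in control cells. In the chondrocyte list of 5 genes Col2a1 was called (lower by 0.82), with list means of 5.63 to 5.89 in LIPUS 24 h cells and 5.85 to 6.04 in control cells. None of the 4 adipocyte, 5 muscle, 5 leukocyte and 4 endothelial genes measured was called. The part of these shifts in the IGF results was not tested. In RNA from whole dishes, fewer cells that express a gene and less of its RNA per cell cannot be told apart.

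At 24 h after LIPUS both ligand genes and the binding protein genes Igfbp2 and Igfbp4 were higher than in control cells, whereas Igfbp6 and 1 probe set each of Igfbp5 and Igfbp7 were lower. By limma, with the experiment as a block and Benjamini-Hochberg adjustment over all probe sets (threshold 0.05), 14 of the 28 probe sets were called, against 2.73% of all probe sets. Of these, 11 were higher (1.8% of all probe sets) and 3 lower (0.933%), and each of the 14 moved in its direction in all 3 experiments. Dim probe sets are seldom called and lower the share over the array. With the lowest 40% of probe sets by mean signal left out, 14 of 25 IGF probe sets were called, against 5.9% of all those kept. Counting each gene by its probe set of highest mean signal, 4 of 10 genes rose and 2 fell, against 2.57% and 1.57% of all genes. The median log2 fold change was 0.03 over the 28 probe sets and 0.0012 over all probe sets, and the calls ran from 0.25 to 1.05 among the 11 higher and from -0.32 to -0.24 among the 3 lower. The 3 LIPUS 24 h arrays all lay above the 3 control arrays for 5 of the 28 probe sets (0.901% of all probe sets), and for 0 they all lay below (0.568%). The study's own rule, a ratio of at least 1.5 in every experiment, was also applied to the deposited values. By it 1 probe set rose (0.0955% of all probe sets), that of Igf2, and none fell (0.0355%). These shares are 43 probe sets higher and 16 lower over the array. The study listed more of both, and far more that were lower, and the reason was not tested.

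**Figure D1:**
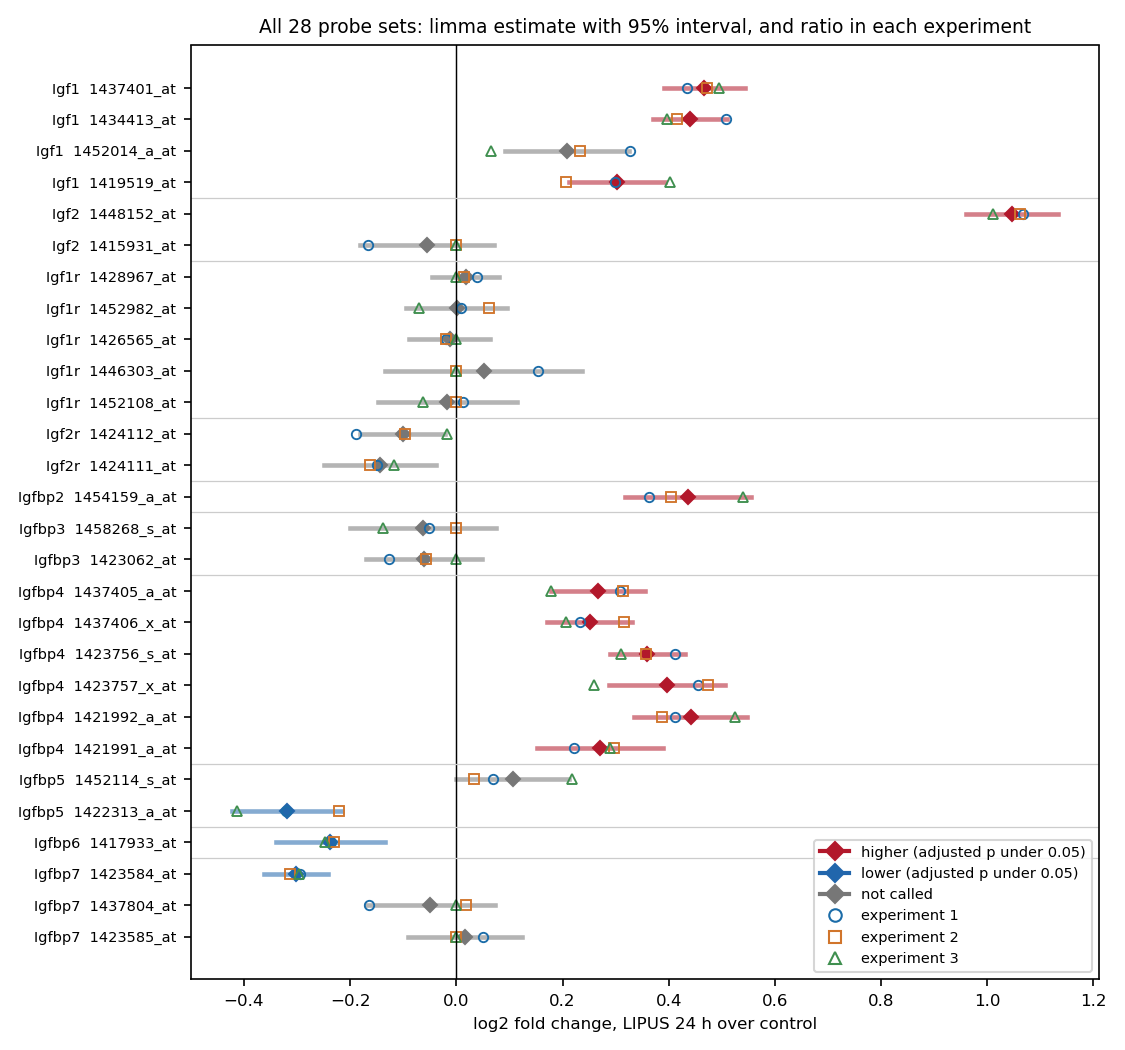
The log2 fold change of LIPUS 24 h over control cells is plotted for each of the 28 IGF probe sets, with diamonds for the limma estimate, bars for its 95% interval and open symbols for the ratio in each of the 3 experiments. Igf2 1448152_at stands apart at 1.05, all 6 Igfbp4 probe sets lie between 0.25 and 0.44, and the 3 lower calls lie between -0.32 and -0.24.

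The stretches just before the transcription start of 5 genes that were called are shown so that their starts can be read beside the changes that follow. They are the 150 bases upstream of RefSeq starts on GRCm38.p6, written along the gene's own strand. Igf1 is at chr10:87860961-87861110 (+), Igf2 at chr7:142657497-142657646 (-), Igfbp4 at chr11:99041094-99041243 (+), Igfbp6 at chr15:102144036-102144185 (+) and Igfbp7 at chr5:77408046-77408195 (-). Igf2 has 4 RefSeq starts, and the one nearest the end of the gene is shown. Capitals mark 3 motifs of general promoters on either strand. These are the TATA box TATAAA (which reads TTTATA where it lies on the opposite strand), the CCAAT box (there ATTGG) and the GC box GGGCGG (there CCGCCC).
Igf1: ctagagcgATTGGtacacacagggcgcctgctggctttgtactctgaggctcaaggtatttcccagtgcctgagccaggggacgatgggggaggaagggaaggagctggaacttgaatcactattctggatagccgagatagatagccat
Igf2: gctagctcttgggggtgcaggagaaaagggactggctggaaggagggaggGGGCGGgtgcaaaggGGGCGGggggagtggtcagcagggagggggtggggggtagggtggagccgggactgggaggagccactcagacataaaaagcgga
Igfbp4: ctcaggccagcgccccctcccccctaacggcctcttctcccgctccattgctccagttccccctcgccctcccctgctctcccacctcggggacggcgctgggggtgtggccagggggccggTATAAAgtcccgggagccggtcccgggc
Igfbp6: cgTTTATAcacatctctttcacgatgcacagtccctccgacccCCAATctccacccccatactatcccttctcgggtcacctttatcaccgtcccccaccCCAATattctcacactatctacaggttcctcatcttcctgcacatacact
Igfbp7: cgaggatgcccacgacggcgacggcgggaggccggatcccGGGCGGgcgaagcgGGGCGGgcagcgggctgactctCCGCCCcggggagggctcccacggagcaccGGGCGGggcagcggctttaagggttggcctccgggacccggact
Over 32851 such windows of all genes, the TATA box was present in 7.57%, the CCAAT box in 24.5% and the GC box in 28.6%. The 10 genes have 14 windows. Among these the TATA box was found in 2, of Igfbp4 and of Igfbp6, the first a gene that rose at 24 h and the second a gene that fell. The CCAAT box was found in 2 windows, of Igf1 and Igfbp6, and the GC box in 6, those of Igf1r, Igf2r, Igfbp7, 1 of Igfbp2 and 2 of the 4 of Igf2. A match to these letters describes the sequence only, and no motif was found for all the genes that rose or for all those that fell.

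Igf2, the growth factor of fetal tissue and an imprinted gene, showed the largest change of the 10 genes. Its probe set 1448152_at had log2 signals of 8.17, 8.42 and 7.82 in LIPUS 24 h cells of experiments 1, 2 and 3, against 7.10, 7.36 and 6.81 in control cells. The lowest LIPUS 24 h array thus lay above the highest control array. The log2 fold change was 1.05 (95% interval 0.96 to 1.13, adjusted p = 9.0e-05), and the ratio was 2.07 ± 0.0440 (SD, n = 3 experiments). The study had chosen Igf2 on these same arrays, so the rise seen here is not independent evidence of its direction. For Igf2 1448152_at at 24 h the study's own list gives a similar mean ratio but a much larger SD, without its mark of significance. Why that spread differs from the one found here was not tested. By real-time PCR the study did report Igf2 as significantly higher after LIPUS. The other Igf2 probe set, 1415931_at, was dim, with signals of 2.49 to 2.92 in LIPUS 24 h cells and 2.65 to 2.92 in control cells. It had the same value on all 3 arrays of experiments 2 and 3, and its log2 fold change was -0.06 (adjusted p = 0.709).

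Igf1, the other ligand, rose on 3 of its 4 probe sets. Signals of 1437401_at were 10.81, 10.90 and 10.56 in LIPUS 24 h cells, against 10.38, 10.43 and 10.06 in control cells. The groups did not overlap, and the log2 fold change was 0.47 (95% interval 0.39 to 0.54, adjusted p = 0.00118). For 1434413_at signals were 10.37, 10.65 and 10.24 in LIPUS 24 h cells, against 9.87, 10.23 and 9.85 in control cells. Here the groups were separated only narrowly, while the log2 fold change was similar at 0.44 (adjusted p = 0.0011). Probe set 1419519_at rose by 0.30 (adjusted p = 0.0105) with overlapping groups. The fourth, 1452014_a_at, was higher by 0.33, 0.23 and 0.06 in experiments 1, 2 and 3 and was not called (0.21, adjusted p = 0.0953), so the probe sets of Igf1 shared a direction but not the call.

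Neither receptor gene was called against control at 24 h. Igf1r, the receptor that signals for both ligands, was measured by 5 probe sets, whose log2 fold changes lay between -0.02 and 0.05. Their 95% intervals together ran from -0.15 to 0.24. The signals of 1428967_at were 9.63, 9.96 and 8.72 in LIPUS 24 h cells and 9.60, 9.94 and 8.72 in control cells. Experiments thus differed far more than treatments did for this probe set, and its 3 arrays of experiment 3 carried 1 value. Igf2r, which clears IGF2, had signals on 1424112_at of 10.55, 10.83 and 10.22 in LIPUS 24 h cells, against 10.74, 10.93 and 10.24 in control cells. The groups overlapped, but the LIPUS 24 h array was the lower of the pair in each experiment, with a log2 fold change of -0.10 (95% interval -0.18 to -0.02, adjusted p = 0.257). The second Igf2r probe set, 1424111_at, gave -0.14 (95% interval -0.25 to -0.04, adjusted p = 0.217).

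**Figure D2:**
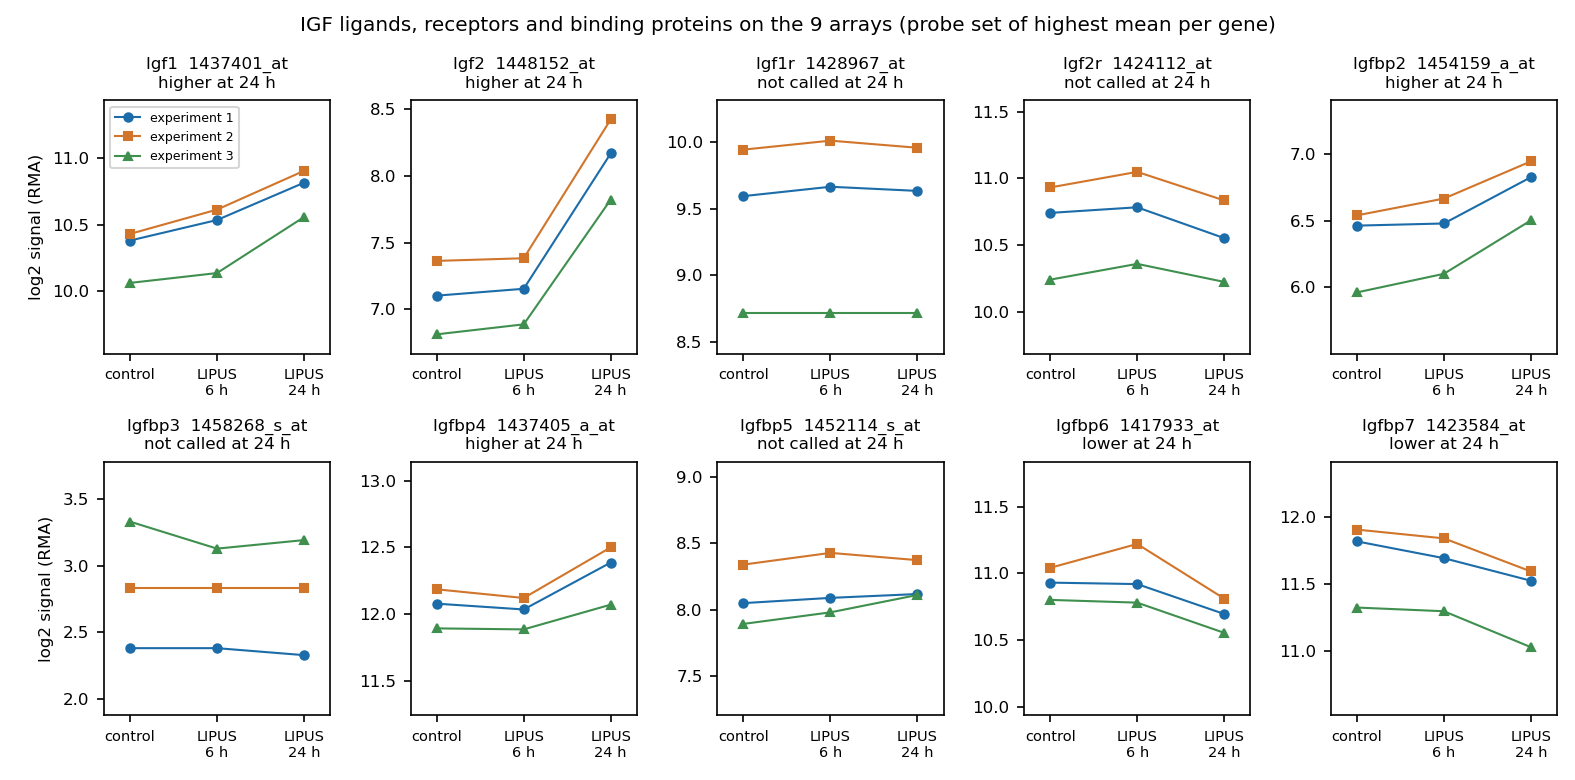
Log2 RMA signals of the 10 genes on the 9 arrays, for the probe set of highest mean signal of each gene, run from control through LIPUS 6 h to LIPUS 24 h, with 1 line for each experiment and the same height of axis in each panel. Igf2 steps up between 6 h and 24 h in all 3 experiments, Igfbp7 and Igfbp6 end below control, and the lines of Igf1r stay level.

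Among the binding proteins, Igfbp2 and Igfbp4 rose. Igfbp2, which carries IGFs and can also bind integrins, had signals on its only probe set, 1454159_a_at, of 6.83, 6.94 and 6.50 in LIPUS 24 h cells, against 6.46, 6.54 and 5.96 in control cells. The lowest LIPUS 24 h array fell just below the highest control array, but each experiment gave a rise, and the log2 fold change was 0.44 (95% interval 0.32 to 0.55, adjusted p = 0.00723). Igfbp4, known mostly as an inhibitor of IGF action on bone cells, was measured by 6 probe sets, and all 6 rose, by 0.25 to 0.44. Signals of 1437405_a_at were 12.39, 12.50 and 12.07 in LIPUS 24 h cells, against 12.08, 12.19 and 11.89 in control cells (log2 fold change 0.27, 95% interval 0.18 to 0.36, adjusted p = 0.0144). Only experiment 3 of the treated cells reached into the control range on this probe set. For 1423756_s_at signals were 11.39, 11.47 and 11.26 in LIPUS 24 h cells, against 10.98, 11.11 and 10.95 in control cells, with no overlap and a log2 fold change of 0.36 (adjusted p = 0.00218). The groups were also apart on 1421992_a_at (0.44, adjusted p = 0.00496) and overlapped on the other 3. Probe sets whose names end in s_at or x_at can also take signal from other transcripts, which concerns 3 of the 6 here as well as Igfbp5 1452114_s_at and Plagl1 1426208_x_at further on.

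The binding protein genes Igfbp6 and Igfbp7 fell on their probe sets of highest signal. Igfbp6, which binds IGF2 in preference to IGF1, had signals on 1417933_at of 10.70, 10.81 and 10.55 in LIPUS 24 h cells, against 10.93, 11.04 and 10.80 in control cells. The groups overlapped narrowly, and the log2 ratios of experiments 1, 2 and 3 were -0.24, -0.23 and -0.25 (log2 fold change -0.24, 95% interval -0.34 to -0.13, adjusted p = 0.0397). Igfbp7, a relative that binds IGFs only weakly, had signals on 1423584_at of 11.52, 11.59 and 11.03 in LIPUS 24 h cells, against 11.82, 11.91 and 11.32 in control cells. Experiment 3 was low in both groups, so the groups overlapped, although the log2 ratios were -0.30, -0.31 and -0.30 in the 3 experiments (log2 fold change -0.30, 95% interval -0.36 to -0.24, adjusted p = 0.0022). The other 2 Igfbp7 probe sets were not called. Probe set 1437804_at gave -0.05 (95% interval -0.17 to 0.07, adjusted p = 0.733) and 1423585_at gave 0.02 (95% interval -0.09 to 0.12, adjusted p = 0.901), with equal values at 24 h and in control cells in experiment 3 on both.

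Igfbp5, which is stored in bone matrix, gave 2 probe sets that pointed in opposite directions. Signals of 1422313_a_at were 7.76, 7.97 and 8.22 in LIPUS 24 h cells, against 8.09, 8.19 and 8.64 in control cells. The groups overlapped and each experiment gave a fall, with a log2 fold change of -0.32 (95% interval -0.42 to -0.21, adjusted p = 0.0138). Signals of 1452114_s_at were 8.12, 8.37 and 8.11 in LIPUS 24 h cells, against 8.05, 8.34 and 7.89 in control cells, for a log2 fold change of 0.11 (adjusted p = 0.397). The second set was higher in each experiment and was not called. Igfbp3, the main IGF carrier of serum, was dim on both of its probe sets (signals of 2.19 to 3.33 over LIPUS 24 h and control arrays), with a log2 fold change of -0.06 on each and 95% intervals that together ran from -0.20 to 0.07. In all, 8 of the 10 genes had more than 1 probe set, and in 4 of them, Igf1, Igf2, Igfbp5 and Igfbp7, the probe sets differed in the call at 24 h.

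**Figure D3:**
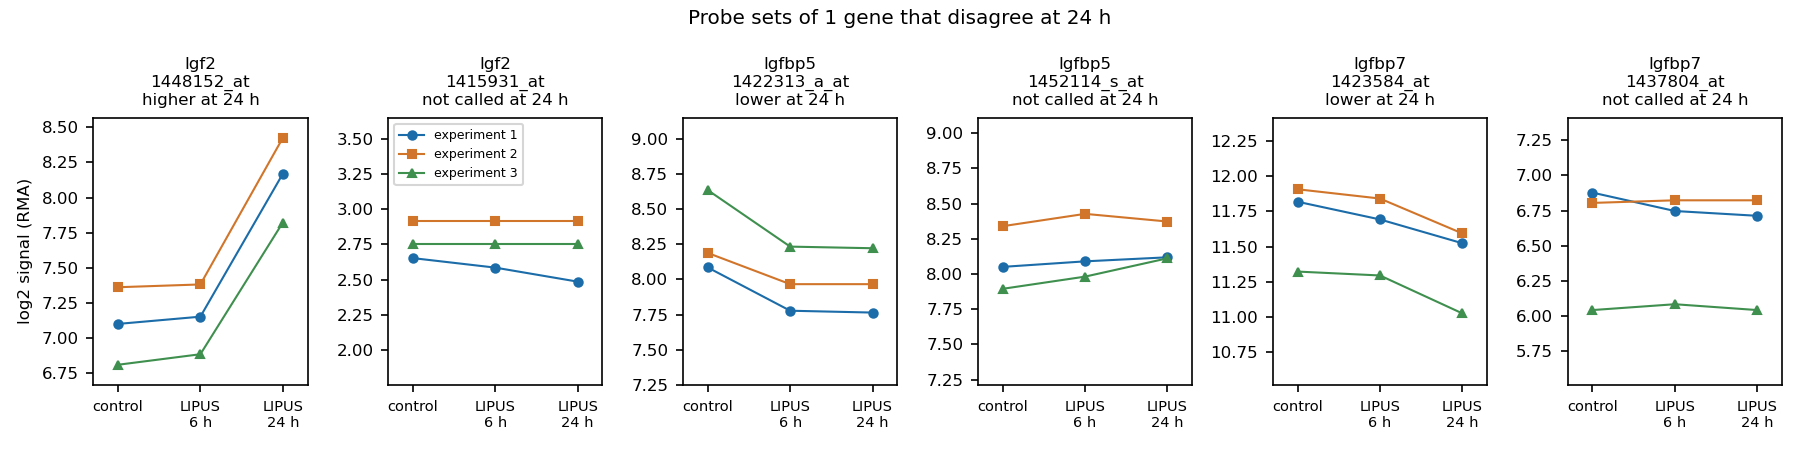
Log2 RMA signals on the 9 arrays are drawn for pairs of probe sets of Igf2, Igfbp5 and Igfbp7 that differed in the call at 24 h, with 1 line for each experiment over control, LIPUS 6 h and LIPUS 24 h. Igf2 1448152_at moved by 1.05 while the dim 1415931_at stayed under 3, Igfbp5 1422313_a_at lies below control at both times although it was called at 24 h only, and Igfbp7 fell on 1423584_at while 1437804_at gave -0.05.

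At 6 h after LIPUS none of the 28 probe sets was called against control by limma (0 of all 45037 probe sets, smallest adjusted p 0.959). At an unadjusted p under 0.05 there were 7 of 28, against 3.5% of all probe sets. The methods' t-test called 0 of the 28 as well. The 6 h and 24 h comparisons use the same control arrays, so their values are set side by side only. The lowest unadjusted p was that of Igfbp5 1422313_a_at, with signals of 7.78, 7.97 and 8.23 in LIPUS 6 h cells, against 8.09, 8.19 and 8.64 in control cells. All 3 experiments were lower at 6 h (log2 fold change -0.31, unadjusted p = 2.0e-04, adjusted p = 0.959), which is close to the -0.32 of this probe set at 24 h. Igf2 1448152_at, by contrast, had signals of 7.15, 7.38 and 6.89 in LIPUS 6 h cells, against 7.10, 7.36 and 6.81 in control cells, a log2 fold change of 0.05 (95% interval -0.04 to 0.13). Igf1 1437401_at gave 0.14 (95% interval 0.06 to 0.21) and Igfbp7 1423584_at gave -0.07 (95% interval -0.13 to -0.01), both in the direction of their 24 h values and neither called. The 2 probe sets of Igf2r were higher at 6 h, by 0.09 and 0.16 (unadjusted p = 0.0293 and 0.00833), where their 24 h values were below control. Igfbp6 1417933_at gave 0.05 (95% interval -0.05 to 0.15), and Igfbp4 gave -0.09 to 0.03 over its 6 probe sets.

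Set directly against each other, LIPUS 24 h and LIPUS 6 h cells differed at 15 of the 28 probe sets (2.02% of all probe sets), with 11 higher at 24 h (1.14%) and 4 lower (0.879%). The 11 comprised 3 probe sets of Igf1, 1 each of Igf2 and Igfbp2, and the 6 of Igfbp4. Igf2 1448152_at was higher at 24 h than at 6 h by 1.00 (95% interval 0.91 to 1.08, adjusted p = 1.43e-04). For the ligands and for Igfbp2 and Igfbp4 the order was therefore 24 h above 6 h and control, and the last 2 did not differ at the threshold. The 4 lower were Igfbp6 (-0.29, adjusted p = 0.0234), Igfbp7 1423584_at (-0.23, adjusted p = 0.0075) and both probe sets of Igf2r. On Igf2r 1424111_at signals were 8.83, 9.25 and 8.81 in LIPUS 24 h cells, against 9.20, 9.62 and 8.98 in LIPUS 6 h cells (log2 fold change -0.31, adjusted p = 0.021), and 1424112_at gave -0.19 (adjusted p = 0.0408). Igf2r was thus called only between the treated groups, with 6 h highest and 24 h lowest and control between them, and neither treated group passed against control. Igfbp5 1422313_a_at differed by -0.01 between 24 h and 6 h (95% interval -0.11 to 0.10).

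The members' patterns over the 9 arrays were compared after the mean of each experiment was taken off. Pearson's r over these arrays, which share experiments and groups, was 0.95 between Igf1 and Igf2, 0.96 between Igf2 and Igfbp4, and -0.99 between Igf1 and Igfbp7. Among 20023 probe sets of other genes, those closest to Igf2 were C1s1, Apod and Lum (r of 0.999, 0.998 and 0.998), and those closest to Igf1 were D5Ertd579e, Col4a6 and Prickle1 (0.998, 0.997 and 0.996). Igfbp2 was followed most closely by Swap70, Tgfb2 and Cdk7 (0.999, 0.997 and 0.995), and Igfbp4 by Psmb10, Ewsr1 and St3gal3 (0.996, 0.996 and 0.994). The genes nearest to Igfbp7 were Dnajc10, Tk1 and Anxa8 (0.997, 0.997 and 0.995), and nearest to Igfbp6 were Lmna, St6gal1 and Hoxc9 (0.991, 0.990 and 0.990). With so many candidates and 9 arrays, values this high describe only the resemblance.

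Of 59 other genes that act with IGFs, 53 were measured, each by its probe set of highest mean. At 24 h 6 of them rose and 2 fell against control, against 2.57% and 1.57% of all genes, and 45 were not called. The median log2 fold change was 0.02, against 0.0014 over all genes. The counts of the single lists below stand beside the same shares, and with so few genes 1 call says little about a list. Among 9 proteases of the binding proteins and their inhibitors 2 rose and 1 fell. Htra1, a secreted serine protease that cleaves IGF binding proteins, had signals of 11.31, 11.50 and 11.06 in LIPUS 24 h cells, against 10.36, 10.53 and 10.14 in control cells, with no overlap (log2 fold change 0.95, adjusted p = 2.38e-04). Pappa2, a metalloprotease that cuts IGFBP3 and IGFBP5, had signals of 11.37, 11.42 and 10.91 in LIPUS 24 h cells, against 10.87, 10.96 and 10.59 in control cells (0.43, adjusted p = 0.00427). Only its array of experiment 3 reached into the control range. Adam9, a membrane metalloprotease that can cut IGFBP5, fell by 0.20 (adjusted p = 0.0128), and Adam12 gave -0.17 (adjusted p = 0.0777).

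Among 5 genes for Igf2 mRNA binding proteins and regulators of the Igf2 locus 1 rose, Plagl1, which encodes an imprinted zinc finger protein that acts on imprinted genes in the mouse. Its signals on 1426208_x_at were 11.08, 11.40 and 11.20 in LIPUS 24 h cells, against 10.36, 10.69 and 10.33 in control cells. The groups did not overlap (log2 fold change 0.77, adjusted p = 5.18e-04), and 1 of the 3 Plagl1 probe sets was called. Htra1 and Plagl1 are among the genes the study chose on these arrays, so neither value here is independent evidence. The study also reported Htra1 as significantly higher by real-time PCR, while Plagl1 was not among the genes it measured that way. Inside the cell, 2 of 12 receptor substrates, adaptors and feedback genes rose. Irs1, the docking protein that the activated receptor phosphorylates, had signals of 11.91, 12.09 and 11.68 in LIPUS 24 h cells, against 11.29, 11.58 and 11.35 in control cells (0.48, adjusted p = 0.00477), again without overlap. Socs2, which curbs growth hormone signalling, rose by 0.18 (adjusted p = 0.0203), with 2 of its 6 probe sets called. Irs2 gave 0.22 (adjusted p = 0.0757). Of 20 genes of the PI3K, AKT, mTOR and FOXO branch only Pik3r1, the regulatory subunit of PI3K, was called (0.39, adjusted p = 0.00171). Of the 4 Pik3r1 probe sets 2 were called. Among 7 related ligand, receptor and binding protein genes only Kazald1, a secreted protein with an IGF binding protein domain, was called (-0.23, adjusted p = 0.0374). At 6 h none of the 53 was called.

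**Figure D4:**
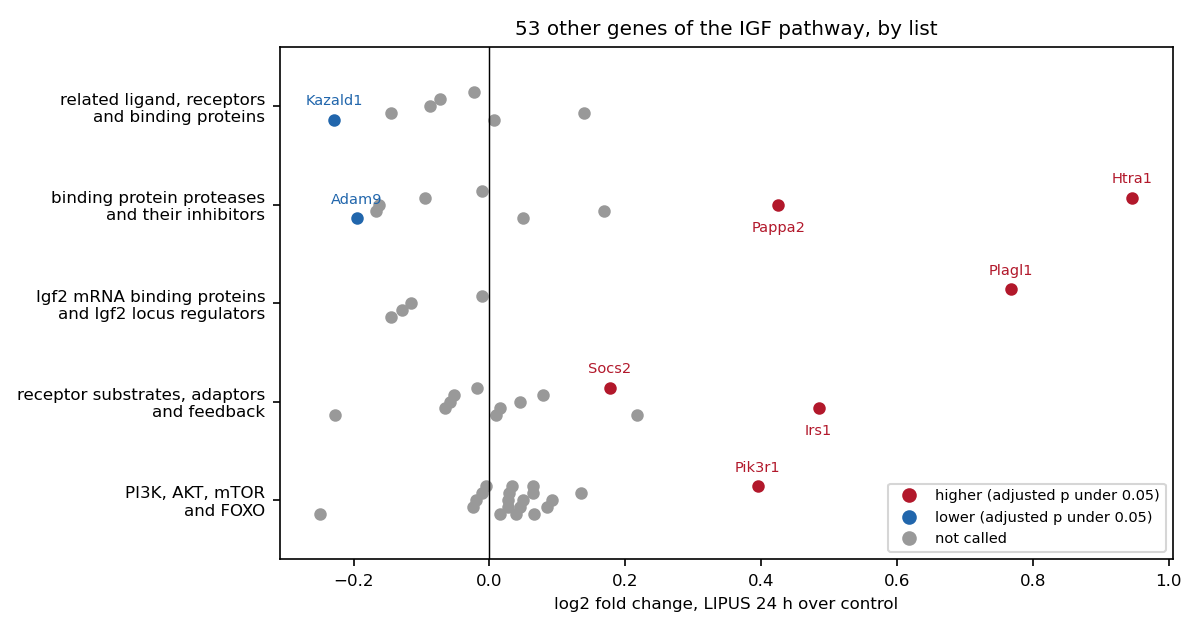
Each point is 1 of the 53 other IGF pathway genes, placed by its log2 fold change of LIPUS 24 h over control cells and grouped in 5 rows by list, with the genes that passed an adjusted p under 0.05 coloured and named. Htra1 at 0.95 and Plagl1 at 0.77 lie farthest to the right, and the 45 genes that were not called lie between -0.25 and 0.22.

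The calls rest on the pairing by experiment and on experiments 1 and 2. Without the block 0 of the 28 probe sets were called at 24 h, without experiment 1 also 0 and without experiment 2 only Igf2 1448152_at (adjusted p = 0.026), as calls over the whole array fell to 1, 0 and 49. Without experiment 3 there were 13, of which 12 were among the 14. Each of the 14 kept its sign in these fits, but this was fixed in advance. Its ratios in the 3 experiments share a sign, and the fold change is a mean of them.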

How the data were processed

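Total RNA was labelled as cRNA (500 ng each) and hybridized to Affymetrix Mouse Genome 430 2.0 arrays. The log2 values were deposited by the authors as RMA signals, and the RMA version and settings, and whether the 9 arrays were normalized together, are not given in the sources used here. They were used without further transformation. Of 45101 probe sets, 64 controls were left out. The platform annotation gave 1 symbol for 34945, several for 932 and none for 9160, and 1 probe set that shares Igf2r with another gene was not used. Array number limits precision. The study describes 3 different experiments. Neither it nor the labels say how far their cultures were separate, so the p-values measure the spread between these samples only.

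Tests used limma 3.58.1 in R 4.3.3 (lmFit, eBayes with trend) on all 9 arrays, the replicate number entering as a fixed block (4 residual degrees of freedom), with Benjamini-Hochberg adjustment over 45037 probe sets. The pairing comes from the numbers in the labels, which the study's ratios within experiments and the correlations in the report bear on. The procedure was tested on simulated data. Every probe set of the 10 genes was described, with up to 4 genes named per pathway list by smallest p at 24 h, and 3 per called gene by Pearson's r. The members, lists and tests were chosen with earlier results of these data known. Some genes of the pathway and marker lists, among them Ins1, Igf2bp2, H19, Rps6kb1, Runx2, Bglap and Spp1, are not analysed here. Promoter sequences came from RefSeq tables on GRCm38.p6, and all 10 genes matched. Alternatives to the block, the trend, the normalization, the probe sets, arrays and thresholds were run.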

Additional observations from a re-analysis of the deposited data

Results flagged for a closer look

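LIPUS 24 h and LIPUS 6 h cells differed, by the limma contrast of 24 h with 6 h, for 15 IGF probe sets and 8 pathway genes. The comparisons of 24 h and 6 h with control use the same control arrays, which cancel in this difference. The treated groups also differ in culture time, so a change in the effect of LIPUS cannot be told apart from culture time here. The log2 signal at 24 h minus that at 6 h was 0.33, 0.34 and 0.25 for Igf1 1437401_at, 1434413_at and 1419519_at (adjusted p of 0.00477, 0.00301 and 0.0256). For Igf2 1448152_at it was 1.00 (adjusted p = 1.43e-04). For Igf2r 1424112_at and 1424111_at it was -0.19 and -0.31 (adjusted p of 0.0408 and 0.021). For Igfbp2 1454159_a_at it was 0.34 (adjusted p = 0.021). For Igfbp4 it was 0.31 on 1437405_a_at, 0.29 on 1437406_x_at, 0.36 on 1423756_s_at, 0.42 on 1423757_x_at, 0.41 on 1421992_a_at and 0.36 on 1421991_a_at (adjusted p of 0.00254 to 0.0189). For Igfbp6 1417933_at it was -0.29 and for Igfbp7 1423584_at -0.23 (adjusted p of 0.0234 and 0.0075).

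Among the pathway genes the difference was 0.99 for Htra1, 0.59 for Plagl1, 0.40 for Irs1, 0.33 for Pik3r1, 0.23 for Pappa2 and 0.18 for Socs2, and -0.27 for Kazald1 and -0.19 for Adam9 (adjusted p of 2.61e-04 to 0.0433). Groups of 3 arrays are too small for a search for single outlying arrays.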

How the results depend on the processing

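At 24 h against control 14 IGF probe sets were called, at 24 h against 6 h 15, and 8 pathway genes at 24 h. Without the replicate block these counts were 0, 0 and 0, so the paired fit decides them, and with the replicate number as a random block they were 15, 14 and 6. On only the 6 arrays compared, with the block, they were 0, 0 and 1. The methods' t-test, which ignores the pairing, gave 4, 5 and 3 at the unadjusted threshold and 0, 0 and 0 after Benjamini-Hochberg adjustment. Leaving out 1 experiment at a time gave 0 to 13, 0 to 15 and 0 to 9, the lowest without experiment 1. Without the intensity trend the 24 h count was 10, that against 6 h 8 and that of pathway genes 5. At 1.2-fold in all experiments 7 IGF probe sets passed, in place of 1 at 1.5-fold. The count at 6 h was 0 under every alternative run. Leaving out the lowest 40% of probe sets, quantile normalization, centring on the median and array weights gave 10 to 14 IGF calls at 24 h. Leaving out probe sets with the same value on all 3 arrays of an experiment, chosen after seeing the data, gave 15 of 20, against 8.52% of all probe sets kept.

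Over the 28 IGF probe sets in all 3 comparisons and the 8 pathway genes at 24 h, 92 log2 fold changes in all, 15 changed sign in at least 1 alternative, and 0 of the 15 were called. Leaving out 1 experiment could not reverse a called value, because its ratios in the 3 experiments share a sign. At 24 h against control, quantile normalization gave -0.0029 for Igf1r 1428967_at, -0.015 for Igf1r 1452982_at and -0.0049 for Igfbp7 1423585_at, and array weights gave -0.0022 for Igf1r 1446303_at and 0.010 for Igfbp7 1437804_at. With 1 experiment left out, Igf1r 1452982_at ranged from -0.030 to 0.035, Igf1r 1452108_at from -0.032 to 0.0062 and Igfbp7 1437804_at from -0.082 to 0.0093. At 6 h against control, quantile normalization gave -0.014 for Igf1r 1426565_at, centring on the median gave 0.0062 for Igfbp4 1423756_s_at, and array weights gave 0.0028 for that probe set, 0.018 for Igfbp4 1423757_x_at and 0.013 for Igfbp7 1437804_at. With 1 experiment left out, Igfbp4 1423756_s_at ranged from -0.016 to 0.0070, Igfbp4 1421992_a_at from -0.0011 to 0.081, Igfbp6 1417933_at from -0.016 to 0.084 and Igfbp7 1437804_at from -0.056 to 0.030. At 24 h against 6 h, Igfbp3 1458268_s_at was -0.0070 under quantile normalization and -0.00083 when centred on the median, and array weights gave -0.024 for Igfbp5 1452114_s_at and 0.022 for Igfbp5 1422313_a_at. With 1 experiment left out, Igfbp3 1458268_s_at ranged from -0.026 to 0.032 and Igfbp5 1452114_s_at from -0.013 to 0.080. Igf1 1452014_a_at, not called at 24 h, passed by limma with the random block (adjusted p = 0.0476), without experiment 3 (adjusted p = 0.0166) and without the probe sets of equal values (adjusted p = 0.0364). The cause of these changes was not tested. Igf2 1415931_at and both Igfbp3 probe sets are among the lowest 40% by signal, where a change would be hard to see.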
